A study of Mus musculus with 6 samples.

Results

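Mitosis and cytokinesis genes encode the proteins that bring a cell from entry into mitosis to the separation of its daughters. The genes were taken by symbol: a list of 41 was looked up in the first column of the 6 expression tables, and all 41 were found among 24346 gene symbols. RNA came from dissected condylar cartilage, the cap of growth cartilage on the jaw side of the jaw joint. The controls were 3 libraries labelled fl/fl, the usual notation for a floxed gene, and the mutants were 3 libraries with a deletion of Ihh specific to the craniofacial neural crest, the cells that form the jaw skeleton. Ihh encodes Indian hedgehog, a ligand made by maturing chondrocytes. The labels give neither the age, sex or strain of the mice nor the Cre driver, nor do they tell whether each library is a mouse of its own. The p-values therefore measure only the spread between these libraries, some of which may be technical.

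A dividing cell raises the transcripts of these genes late in its cycle, after DNA replication, and lets them fall on leaving mitosis. In growth cartilages the dividing cells lie in the progenitor and proliferating layers, and Ihh is known as a signal that maintains chondrocyte proliferation. In bulk tissue, fewer dividing cells, less of these RNAs per cell and a smaller share of cartilage in the sample cannot be told apart.

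The values were FPKM, that is, fragments per kilobase of transcript after scaling for depth. In the 6 libraries 17761 to 18359 genes reached 1 FPKM, and no pair of libraries was identical. The spacing of low values gave each library's relative scaling total, from 0.993 to 1.33 times that of control 1, and whole numbers of fragments for 30 of the 41 genes, within 0.0183 of a fragment. These were 4 to 248 fragments per gene and library, with a median of 50. With the longest GENCODE transcript of each gene, they implied a median scaling total of 1290000 fragments in control 1. Ihh itself measured 2.51 to 3.74 FPKM in controls and 2.18 to 2.66 FPKM in mutants, which overlap and did not check the labels. Cre and Tomato, which the submitters also used to check the mutants, were not analysed here. Gli1, a direct target of hedgehog signalling, measured 7.10 to 9.53 FPKM in controls and 0.168 to 0.807 FPKM in mutants.

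Markers of other cell types differed between the same groups. The summed level of 20 skeletal muscle markers was 5183 to 12785 FPKM in controls and 20793 to 37906 FPKM in mutants, or 0.869% to 2.005% and 3.27% to 5.13% of each table's total. Of these 20 markers, 16 were higher in every mutant than in any control. All 10 endothelial markers were higher in every mutant too, with sums of 102 to 167 FPKM in controls and 283 to 328 FPKM in mutants. Of the 12 chondrocyte markers measured, 9 were lower in every mutant than in any control, and the sums were 413 to 547 FPKM in controls and 217 to 261 FPKM in mutants. Another, Comp, was higher in every mutant, at 9.19 to 22.6 FPKM in controls and 23.0 to 91.9 FPKM in mutants. Among the 18715 genes tested below, every mutant was above every control in 1828 and below every control in 1760. No measured marker of these lists was at 0 in all libraries. For 6 satellite cell and myoblast markers the sums were 47.5 to 65.1 FPKM in controls and 84.9 to 133 FPKM in mutants. The sums for erythroid, marrow granule, macrophage and osteoclast, osteoblast, and fibrous layer markers overlapped between the groups. Single fibrous layer and progenitor markers nevertheless differed: of 9, 2 were lower and 1 was higher in every mutant. Postn measured 834 to 1068 FPKM in controls and 204 to 384 FPKM in mutants, and Aspn 419 to 558 and 140 to 353 FPKM. Prg4 measured 9.69 to 14.1 and 50.5 to 59.2 FPKM. Xist, which is expressed from the inactive X chromosome, measured 29.5 and 29.2 FPKM in controls 1 and 2 but only 0.608 FPKM in control 3, and the mutants lay between 0.577 and 0.984 FPKM. The part of muscle content, of cartilage content and of sex in the results was not tested beyond the values given with them.

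The comparison asked which transcripts differ when neural crest cells lack Ihh. In mutant cartilage, 5 of the 41 genes fell at a Benjamini-Hochberg adjusted p below 0.05 over all genes tested (limma), and none rose. They were the mitotic kinase gene Cdk1, the spindle checkpoint gene Mad2l1, the kinase gene Aurkb of the chromosomal passenger complex, and the spindle midzone genes Prc1 and Kif20a. Among the 18715 genes tested, 0.465% were called lower and 0.775% higher in mutants by the same rule. All 41 genes passed the filter of 1 FPKM in 3 libraries, and Kif4 in mutant 1 was the only value of theirs below 1 FPKM. The log2 fold change was negative in all 41, and its median was -0.92 on the scale of log2(FPKM + 1). Over all genes tested the median was 0.00085, and 49.9% of the values were negative. For the 12 chondrocyte markers the median was -1.24, with 11 negative and 1 positive. The log2(FPKM + 1) scale understates the change of genes at a few FPKM.

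In 31 of the 41 genes every mutant value lay below every control value (called separated from here on), which was so for 9.4% of all genes tested. As ratios of group means, controls exceeded mutants by 1.09-fold (Ttk) to 3.44-fold (Bub1), with a median of 2.01-fold. The sum over the 41 genes was 861, 968 and 899 FPKM in controls 1, 2 and 3, against 426, 600 and 394 FPKM in mutants 1, 2 and 3. Mutant 2 thus stood between the controls and the other mutants. It had the highest mutant value in 28 of the 41 genes. Mutant 2 also had the highest osteoblast marker sum, 14950 FPKM against 5329 and 4704 FPKM in mutants 1 and 3. Its marrow granule sum was 670 FPKM against 404 and 52.6 FPKM, and its macrophage and osteoclast sum 2102 FPKM against 1386 and 453 FPKM. Its fibrous layer sum, 1869 FPKM, lay between those of mutants 1 and 3. Whether these contents bear on the 41 genes was not tested. Relative to each gene's control mean, the median gene stood at 0.427 in mutant 1, 0.641 in mutant 2 and 0.472 in mutant 3, against 0.934, 1.09 and 0.991 in controls 1, 2 and 3.

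**Figure D1:**
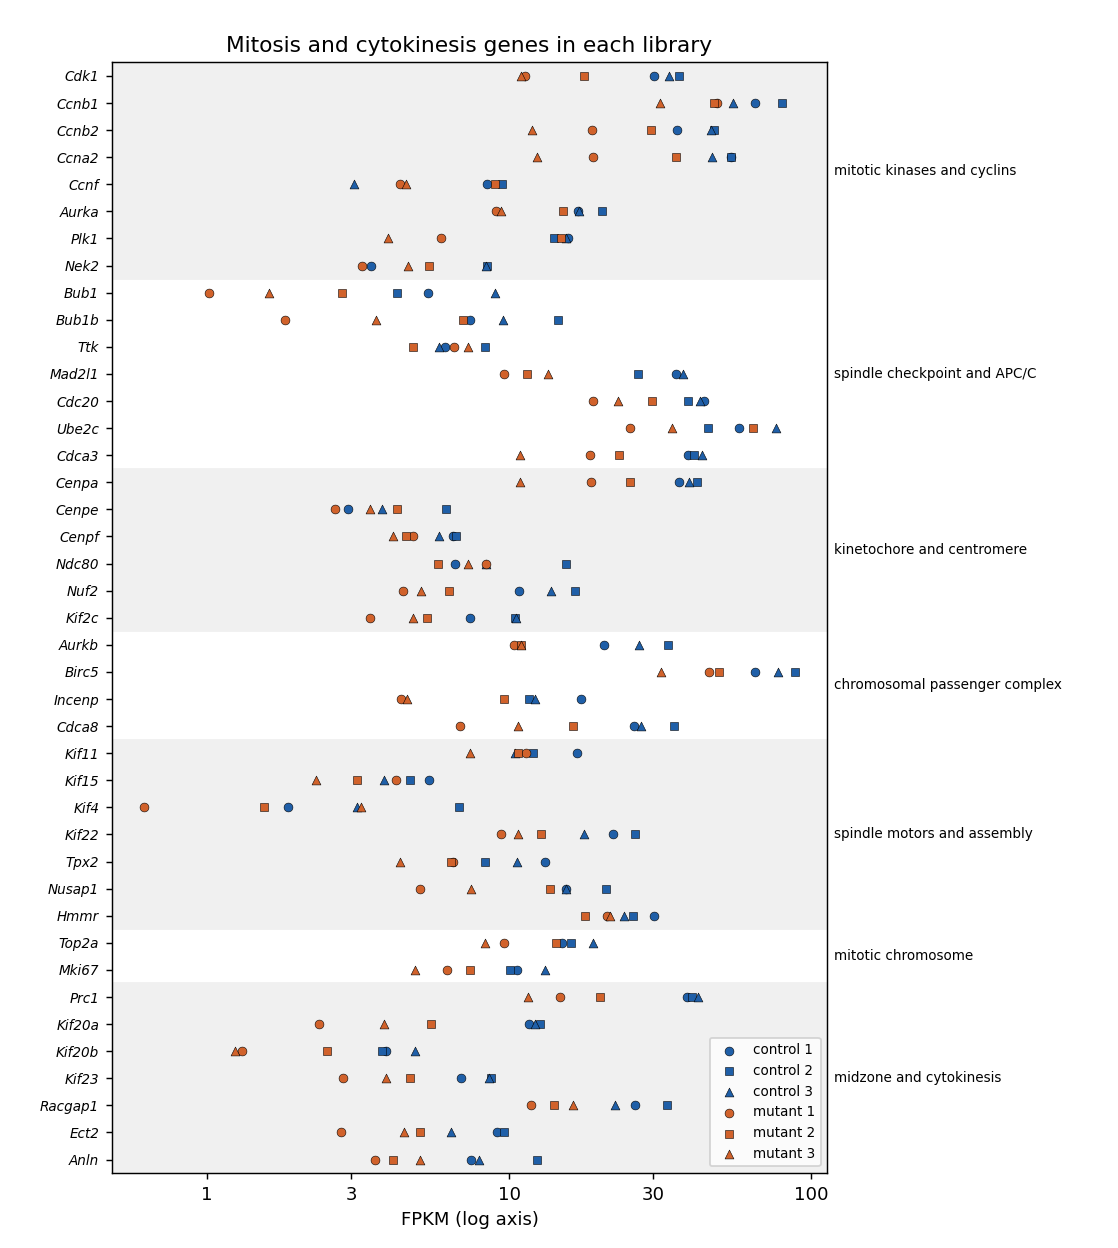
FPKM of the 41 genes (log axis) in 3 control libraries (blue) and 3 mutant libraries (orange), with a marker shape for each replicate and genes grouped by role. In 31 genes the orange points all lie left of the blue ones, and in the other 10 the groups overlap.

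**Figure D2:**
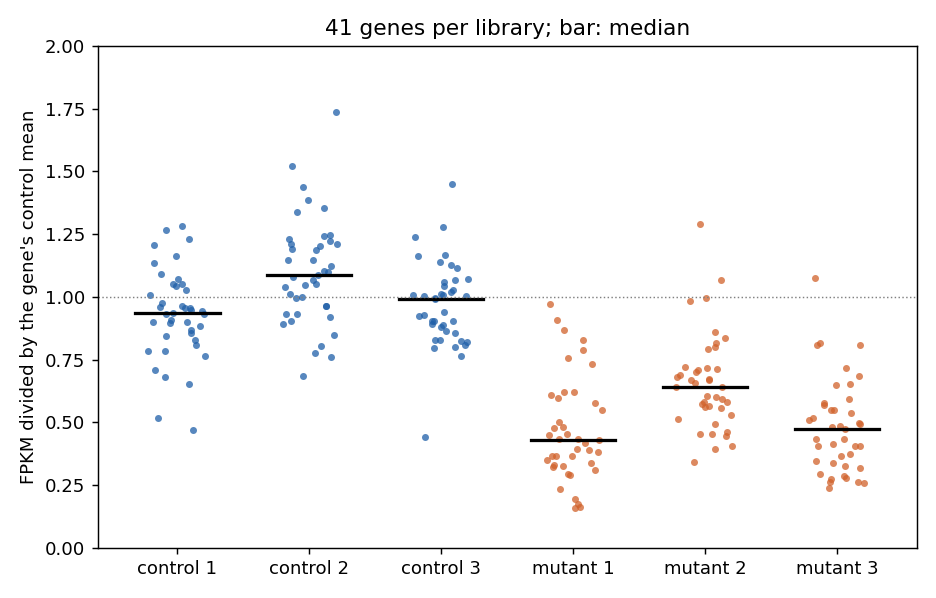
Each point is 1 of the 41 genes in 1 library, as FPKM divided by that gene's mean over the controls, with bars at the median. The medians are 0.427, 0.641 and 0.472 in mutants 1, 2 and 3, all below the lowest control median of 0.934.

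Each of the 5 calls was lost when single libraries were left out. Without control 1, control 2, control 3 or mutant 1, 0 of the 41 genes were called (limma, adjusted over all genes), although 25 to 28 still had an unadjusted p below 0.05 with a lower mutant value. Without mutant 2, 3 were called, namely Cdk1, Prc1 and the cyclin gene Ccna2, and without mutant 3, 2 were called, Mad2l1 and Prc1. With all libraries, 30 of the 41 had an unadjusted p below 0.05 in that direction, as did 6.11% of all genes tested. The count became 8 with a filter at 5 FPKM or after quantile normalization, 2 without a filter, and 11 when each library was scaled to its sum without the muscle markers. This last scaling also moved the split of all called genes, from 62.5% higher in mutants to 48.2%.

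Control 3, the control without Xist, was also above the mutants in most of the genes. It exceeded all 3 mutants in 34 of the 41 genes, which was so for 28% of all genes tested, and exceeded the mutant mean in 39. Its median ratio to the mutant mean was 1.86, beside 2.08 for the mean of controls 1 and 2. Ccnf and Ttk were the exceptions, at 3.07 and 5.86 FPKM in control 3. With control 3 as the only control, the median log2 fold change was -0.89 and no gene of the 41 was called, in a fit that takes the lone control to vary like the mutants. Here 16 of them had an unadjusted p below 0.05 with a lower mutant value. With Xist as a covariate the median was -0.90, and with the muscle marker mean as a covariate it was -1.07, again without a call. Only control 3 shared the low Xist level of the mutants, so the Xist fit largely repeats the comparison with control 3. The muscle sums did not overlap between the groups, so the muscle fit cannot separate muscle content from genotype.

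**Figure D3:**
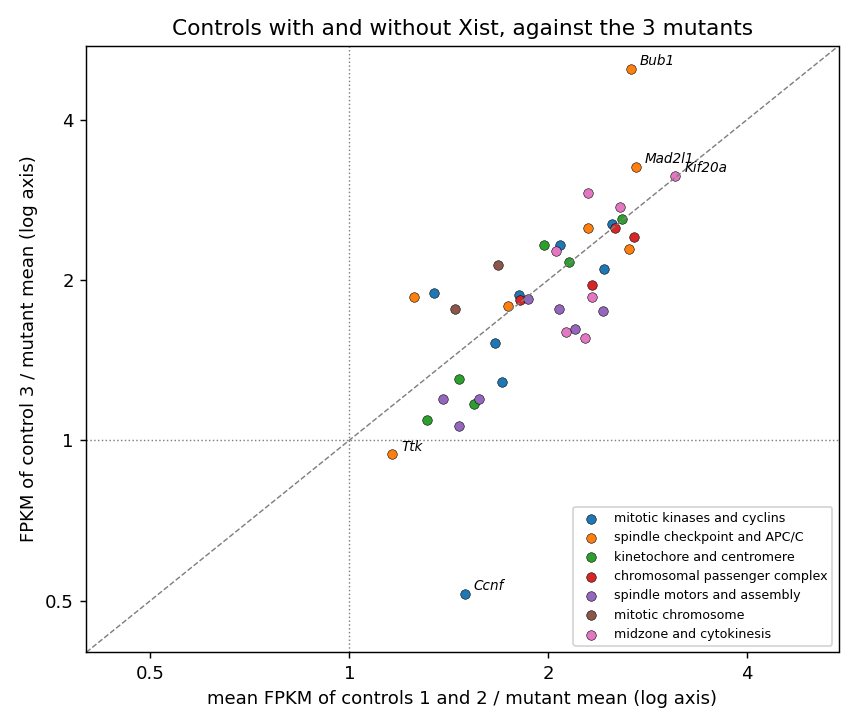
For each of the 41 genes, the mean of controls 1 and 2 (with Xist) over the mutant mean on the x axis and control 3 (without Xist) over the mutant mean on the y axis, both on log axes, coloured by role. Points above 1 on the y axis are the 39 genes in which control 3 exceeds the mutant mean, and Ccnf and Ttk lie below it.

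The genes have something in common that their choice did not use, the letters of their promoters. Many late cell cycle genes are known to carry a cell cycle genes homology region (CHR) close to the start, bound by the DREAM and MuvB complexes, and CCAAT boxes further upstream, bound by NF-Y. RefSeq promoter windows (GRCm38.p6, 250 bases before to 50 after the start) were on hand for 36 of the 41 genes, which leaves out Aurkb, Ccna2, Incenp, Kif20a and Tpx2. The CHR letters TTTGAA or TTCGAA, on either strand, were found in 29 of the 36 (80.6%), against 21.7% of 27025 genes with such a window. A match within 40 bases of the start was found in 27 of the 36 (75%), against 5.25% of all genes. CCAAT, on either strand, was found in 27 of the 36 (75%), against 41.1% of all genes. Both kinds together were found in 24 (66.7%), against 8.61%. A CHR match and a CCAAT box can share no more than an end base.

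The 150 bases before the RefSeq start are shown for 5 genes, with CHR and CCAAT letters in capitals as they read on the gene's strand. Cdk1 and Prc1 fell and carry both motifs. Mad2l1 fell and holds neither in these bases. They end at 66535220, however, and the GENCODE model of Mad2l1 starts further downstream, at 66535390. The bases next to that start lay outside the window and were not searched. In Cdk1, Prc1, Cdc20 and Ccnf the GENCODE start (24251484 for Ccnf) lies within the bases shown. Some of their letters, among them the last CHR match of Cdk1 and of Ccnf, are thus inside that model. Cdc20 was separated without a call, and Ccnf, which overlapped between genotypes, carries both.
Cdk1 (chr10:69352913-69353062, minus strand): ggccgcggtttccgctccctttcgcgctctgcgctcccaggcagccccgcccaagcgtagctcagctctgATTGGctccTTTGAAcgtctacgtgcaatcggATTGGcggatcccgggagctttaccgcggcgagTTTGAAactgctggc
Prc1 (chr7:80294326-80294475, plus strand): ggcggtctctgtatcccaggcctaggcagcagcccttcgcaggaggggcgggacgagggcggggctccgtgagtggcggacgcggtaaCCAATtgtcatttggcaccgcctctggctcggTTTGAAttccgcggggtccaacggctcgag
Mad2l1 (chr6:66535071-66535220, plus strand): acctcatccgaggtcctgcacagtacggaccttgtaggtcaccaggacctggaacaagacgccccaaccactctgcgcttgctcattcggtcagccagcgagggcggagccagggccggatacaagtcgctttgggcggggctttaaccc
Cdc20 (chr4:118437344-118437493, minus strand): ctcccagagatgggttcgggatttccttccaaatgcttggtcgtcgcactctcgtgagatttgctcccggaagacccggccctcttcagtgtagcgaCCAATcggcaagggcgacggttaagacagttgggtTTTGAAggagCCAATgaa
Ccnf (chr17:24251410-24251559, minus strand): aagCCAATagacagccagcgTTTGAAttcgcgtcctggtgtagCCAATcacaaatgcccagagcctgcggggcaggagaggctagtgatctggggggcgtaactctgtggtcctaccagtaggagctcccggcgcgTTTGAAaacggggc

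In Cdk1 the capitals mark 2 CHR matches, each downstream of a CCAAT box in reverse orientation. Cdc20 and Prc1 each hold a CHR match in the last 30 bases, and the Prc1 window belongs to the second of 2 RefSeq starts. Of the 26 genes with a window that were separated between the groups, 21 held a CHR match, and of the 10 that overlapped, 8 did. The matches describe letters only, and no binding was measured.

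Among the mitotic kinases and cyclins, which drive entry into mitosis, 1 of 8 fell. Cdk1, the kinase that cyclins B and A activate, whose promoter holds 2 CHR matches, is a minus-strand gene of chromosome 10 (mm10, 69335146 to 69352938). It measured 30.2, 36.4 and 33.9 FPKM in controls 1, 2 and 3, against 11.3, 17.7 and 10.95 FPKM in mutants 1, 2 and 3. In fragments this was 115, 138 and 172 against 43, 81 and 44. Every mutant was below every control, and the means were 33.5 ± 3.156 and 13.3 ± 3.795 FPKM (SD, n = 3 per group; log2 fold change -1.30 ± 0.23 SE, limma adjusted p = 0.0377). Over the 18 other settings its log2 fold change stayed between -1.63 and -1.18, with adjusted p from 0.0158 to 0.715.

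No cyclin gene passed the test. Ccna2, the cyclin of S phase and early mitosis, measured 54.5, 54.3 and 46.98 FPKM in controls, against 19.01, 35.8 and 12.4 FPKM in mutants. Mutant 2 was nearly 3 times mutant 3, and the difference from controls did not pass (limma adjusted p = 0.105). The B cyclins Ccnb1 and Ccnb2, which pair with Cdk1 at mitotic entry, had control means of 66.9 ± 12.75 and 43.5 ± 6.505 FPKM and mutant means of 42.8 ± 9.69 and 20.1 ± 8.90 FPKM (adjusted p = 0.246 and 0.116, limma). Both were separated between the groups. Plk1, a kinase of spindle and centrosome maturation, showed a split among the mutants. It measured 14.0 to 15.7 FPKM in controls, and 5.94 and 3.97 FPKM in mutants 1 and 3 but 14.8 FPKM in mutant 2, inside the control range. Aurka, the centrosomal Aurora kinase, stood at 18.1 ± 1.95 and 11.2 ± 3.39 FPKM and was separated, whereas Nek2, a kinase of centrosome separation, and Ccnf, the F-box cyclin, overlapped. Ccnf was low in control 3 and high in mutant 2, with 8.42, 9.45 and 3.07 FPKM in controls, against 4.34, 9.015 and 4.565 FPKM in mutants. Its 91 control and 83 mutant fragments gave a scaled ratio of 0.932, with an exact 95% interval of 0.684 to 1.27 that covers counting error only.

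In the group of the spindle checkpoint and its target, the anaphase-promoting complex (APC/C), 1 of 7 genes fell. This count includes Cdca3, a gene of mitotic entry that was listed with them. Mad2l1 encodes MAD2, which holds back the APC/C activator CDC20 until every chromosome is attached. It is a plus-strand gene of chromosome 6 (mm10, 66535390 to 66547220). It measured 35.8, 26.8 and 37.55 FPKM in controls, against 9.65, 11.45 and 13.5 FPKM in mutants, or 78, 58 and 109 against 21, 30 and 31 fragments. Unlike in most of the list, mutant 2 was not the highest mutant. The lowest control was about 2 times the highest mutant, and Mad2l1 had the smallest p of the 41 genes (33.4 ± 5.78 and 11.5 ± 1.92 FPKM, SD, n = 3 per group; log2 fold change -1.45 ± 0.22 SE, limma adjusted p = 0.0251, from 0.0127 to 0.715 over the other settings).

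Cdca3, which promotes mitotic entry as part of a ubiquitin ligase, measured 39.1, 41.04 and 43.7 FPKM in controls, against 18.5, 23.1 and 10.8 FPKM in mutants (limma adjusted p = 0.0623). The checkpoint kinase gene Bub1 had the largest ratio of means, with 5.39, 4.24 and 8.99 FPKM in controls, against 1.013, 2.81 and 1.599 FPKM in mutants. The mutant values rested on 6, 20 and 10 fragments, and the adjusted p was 0.129 (limma). Bub1b, its relative that encodes BUBR1, stood at 10.5 ± 3.67 and 4.15 ± 2.65 FPKM, and Cdc20 at 42.0 ± 2.61 and 23.9 ± 5.43 FPKM. All 3 were separated between the groups. The checkpoint kinase gene Ttk was not: it measured 5.86 to 8.34 FPKM in controls and 4.82 to 7.29 FPKM in mutants.

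Ube2c, the ubiquitin-conjugating enzyme of the APC/C, overlapped between the groups, with 45.5 to 76.6 FPKM in controls, against 25.1, 64.1 and 34.7 FPKM in mutants. It shares 592 exon bases with Tnnc2, a fast muscle troponin gene on the opposite strand, in GENCODE M21. Tnnc2 measured 835 to 2244 FPKM in controls and 3901 to 7371.5 FPKM in mutants, highest in mutant 2. The libraries do not keep the strand, and the share of Ube2c fragments that came from Tnnc2 was not tested.

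No gene of the kinetochore and centromere group was called, and 4 of its 6 were separated. Nuf2, a subunit of the NDC80 complex that binds microtubules, measured 10.8, 16.6 and 13.8 FPKM in controls, against 4.44, 6.33 and 5.11 FPKM in mutants (34, 52 and 58 against 14, 24 and 17 fragments). It lay just beyond the threshold (log2 fold change -1.22 ± 0.25 SE, limma adjusted p = 0.0568). Ndc80, its direct partner in the complex, measured 6.63, 15.5 and 8.39 FPKM in controls, against 8.39, 5.81 and 7.28 FPKM in mutants, so that only control 2 stood above the mutants. Whether Nuf2 and Ndc80 differed from each other was not tested. Cenpa, the histone H3 variant of centromeres, measured 36.5, 41.8 and 39.35 FPKM in controls, against 18.7, 25.1 and 10.8 FPKM in mutants (limma adjusted p = 0.0976). The microtubule-depolymerising kinesin gene Kif2c stood at 9.48 ± 1.78 and 4.54 ± 0.97 FPKM. The genes of the very large kinetochore proteins CENPE and CENPF showed small differences. Cenpe overlapped, at 2.93 to 6.17 FPKM in controls and 2.66 to 4.26 FPKM in mutants. Cenpf was narrowly separated, at 5.84 to 6.67 and 4.11 to 4.79 FPKM.

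The chromosomal passenger complex, which corrects faulty attachments and then marks the midzone, was separated in all 4 of its genes, and 1 fell. Aurkb, its kinase, is a plus-strand gene of chromosome 11 (mm10, 69045647 to 69051664). It measured 20.7, 33.6 and 26.9 FPKM in controls, against 10.4, 10.9 and 10.9 FPKM in mutants, or 52, 84 and 90 against 26, 33 and 29 fragments. The mutants lay close together, at 10.7 ± 0.33 FPKM, while the controls spread more widely, at 27.1 ± 6.48 FPKM (SD, n = 3 per group; log2 fold change -1.23 ± 0.22 SE, limma adjusted p = 0.0413, from 0.0216 to 0.837 over the other settings). Cdca8, which encodes borealin, measured 26, 35.1 and 27.3 FPKM in controls, against 6.88, 16.3 and 10.7 FPKM in mutants (limma adjusted p = 0.0646). Birc5, which encodes survivin, had the highest control mean of the 41 genes, 77.1 ± 11.7 FPKM, and stood at 42.3 ± 9.33 FPKM in mutants. Incenp, the scaffold, stood at 13.7 ± 3.15 and 6.21 ± 2.96 FPKM.

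Spindle motors and assembly factors were separated in 4 of 7 genes, and none was called. Kif22, a kinesin that pushes chromosome arms towards the equator, measured 22.1, 26.04 and 17.7 FPKM in controls, against 9.39, 12.8 and 10.7 FPKM in mutants (limma adjusted p = 0.0887). Nusap1, which bundles microtubules near chromosomes, measured 15.5, 20.9 and 15.4 FPKM in controls, against 5.065, 13.7 and 7.46 FPKM in mutants (limma adjusted p = 0.201). Tpx2, which activates Aurora A on the spindle, stood at 10.7 ± 2.43 and 5.77 ± 1.24 FPKM. The kinesins that hold spindle poles apart, Kif11 and Kif15, overlapped between the groups. Kif11 measured 10.4 to 16.75 FPKM in controls and 7.44 to 11.3 FPKM in mutants, and Kif15 3.85 to 5.43 and 2.29 to 4.23 FPKM. Kif4, a chromokinesin gene on the X chromosome, varied widely, at 1.85, 6.84 and 3.13 FPKM in controls, against 0.619, 1.54 and 3.22 FPKM in mutants, on as few as 4 fragments. Hmmr, a spindle and hyaluronan-binding protein gene, was separated with a small difference, at 24.1 to 30.2 and 17.8 to 21.5 FPKM.

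The general proliferation markers were lower in every mutant without passing the test. Mki67, the gene of the chromosome-coating protein Ki-67, measured 10.65, 10.1 and 13.1 FPKM in controls, against 6.215, 7.395 and 4.88 FPKM in mutants, on 151, 142 and 248 against 88, 126 and 73 fragments (limma adjusted p = 0.167). Top2a, the topoisomerase that untangles sister chromatids, measured 15, 16.1 and 18.99 FPKM in controls, against 9.599, 14.3 and 8.299 FPKM in mutants (limma adjusted p = 0.295). Mutant 2 lay just under the lowest control in Top2a.

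Midzone and cytokinesis genes, which build the central spindle and the contractile ring, were separated in 7 of 7 genes, and 2 fell. Prc1, which cross-links antiparallel microtubules, is a plus-strand gene of chromosome 7 (mm10, 80294450 to 80316259). It measured 38.8, 40.4 and 42.3 FPKM in controls, against 14.75, 19.9 and 11.6 FPKM in mutants. The 3 controls agreed closely, and the means were 40.5 ± 1.75 and 15.4 ± 4.23 FPKM (SD, n = 3 per group; log2 fold change -1.37 ± 0.22 SE, limma adjusted p = 0.0301, from 0.012 to 0.692 over the other settings). Kif20a, the kinesin that brings passenger proteins to the midzone, measured 11.6, 12.65 and 12.2 FPKM in controls, against 2.348, 5.5 and 3.84 FPKM in mutants. It had the lowest log2 fold change of the 41 genes, -1.48 ± 0.29 SE (12.2 ± 0.51 and 3.896 ± 1.577 FPKM, SD, n = 3 per group; limma adjusted p = 0.0486, from 0.0258 to 0.747 over the other settings). Exons of Prc1 overlap Rccd1 (911 of 8225 exon bases) and those of Kif20a overlap Cdc23 (1271 of 4338), both on the opposite strand. Whole numbers of fragments were recovered for neither Prc1 nor Kif20a, and the share that came from the overlapping genes was not tested. Rccd1 measured 6.20 to 6.37 FPKM in controls and 5.98 to 10.2 FPKM in mutants, and Cdc23 15.8 to 29.8 and 8.52 to 18.7 FPKM.

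The partners Kif23 and Racgap1, which form the centralspindlin complex, stood at 8.08 ± 1.005 and 3.80 ± 0.94 FPKM and at 27.3 ± 5.63 and 14.0 ± 2.23 FPKM. Ect2, which centralspindlin recruits to activate RhoA, stood at 8.37 ± 1.72 and 4.11 ± 1.19 FPKM. The ring scaffold gene Anln stood at 9.25 ± 2.70 and 4.26 ± 0.74 FPKM, and the kinesin gene Kif20b at 4.19 ± 0.60 and 1.67 ± 0.71 FPKM. Their adjusted p-values were 0.0961 to 0.198 (limma). Control means exceeded mutant means by 1.95-fold to 3.12-fold in this group, beside 1.32-fold to 2.2-fold for the spindle motors and assembly factors. The median here was 2.17-fold, below the 2.36-fold of both the checkpoint and APC/C group and the chromosomal passenger complex. The difference between the groups of genes was not tested.

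**Figure D4:**
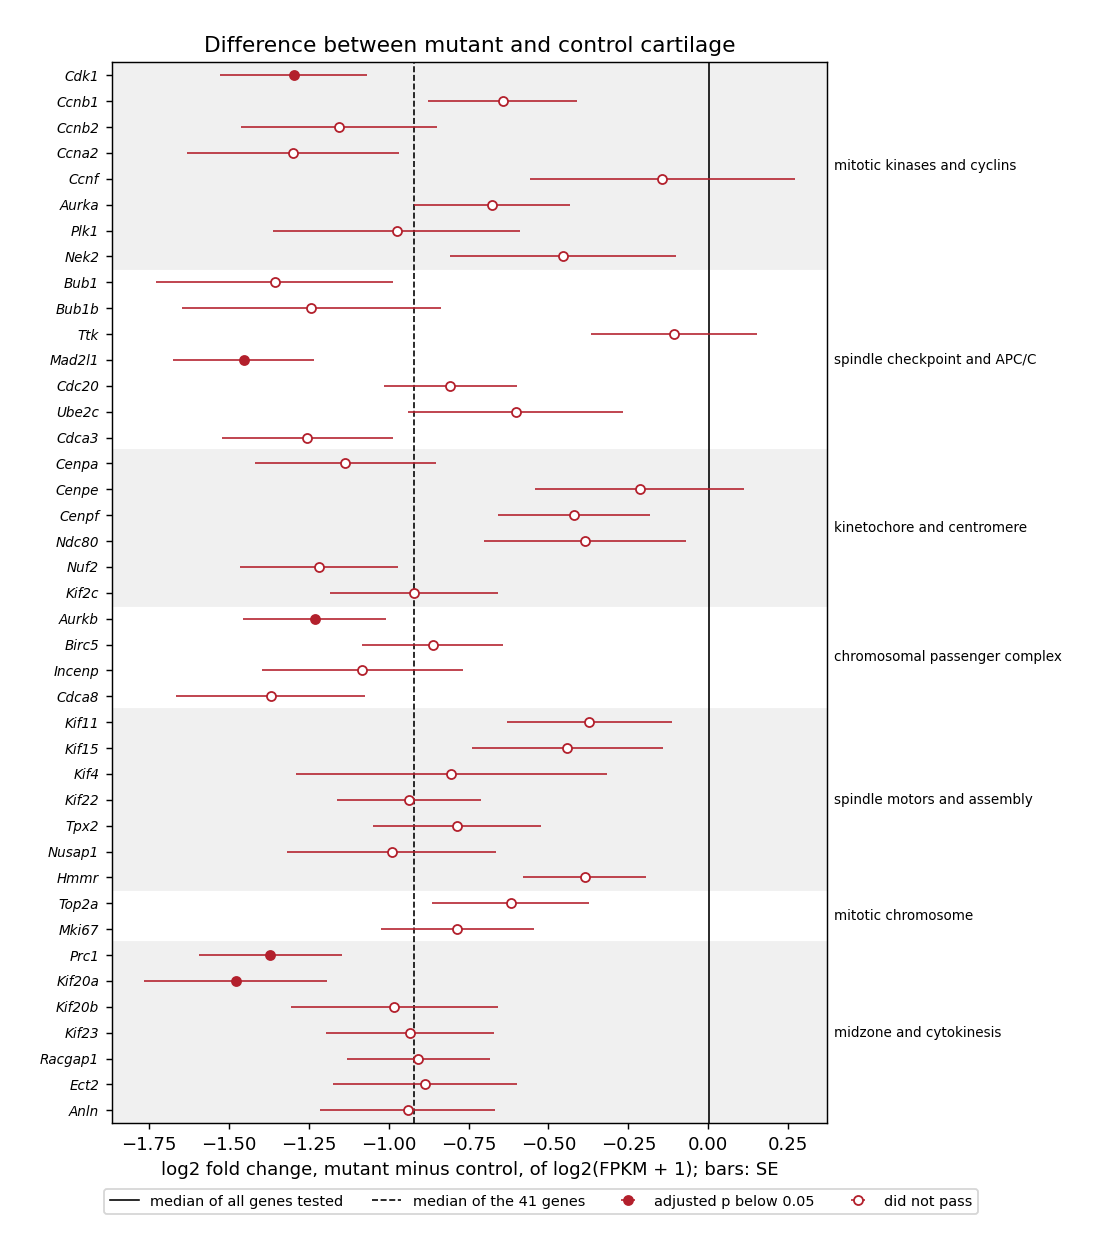
The log2 fold change of each gene (mutant minus control, log2(FPKM + 1)) with its standard error, filled where the limma adjusted p was below 0.05. All 41 points lie left of 0, with a median of -0.92, and the 5 filled points are Cdk1, Mad2l1, Aurkb, Prc1 and Kif20a.

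Low values limit some of these statements. The 90th percentile of 1120 olfactory receptor genes, a class with little expression in most tissues, was 6.49 to 8.69 FPKM over the 6 libraries. Below it lay 8 to 13 of the 41 genes in controls and 17 to 24 in mutants. Every mutant value of the called gene Kif20a was among them, as was every mutant value of Bub1, which had the largest ratio of means. The other called genes lay above it in every mutant. Of the 30 genes with recovered fragments, 28 had an exact 95% interval of the mutant to control ratio below 1, and Ccnf and Cenpe had intervals that included 1. These intervals cover counting error only and not the spread between libraries. Exons of 11 of the 41 genes overlap a gene read from the other strand, and the libraries cannot assign such fragments.

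Other genes of cell division, from 6 lists of 172 symbols of which 165 were tested, mostly pointed the same way. Of the 165, 1 fell and 0 rose (limma, adjusted over all genes tested), which is near the 0.465% of all genes tested that were called lower. The log2 fold change was below 0 in 143, against 49.9% of all genes tested, and 62 (37.6%) were separated with mutants below, against 9.4%. Their median log2 fold change was -0.44. Leaving out any single control, or mutant 1, left 0 called. The call was Gins2, a subunit of the replicative helicase complex, at 20.96, 19.4 and 18.3 FPKM in controls, against 8.40, 5.58 and 9.54 FPKM in mutants (adjusted p = 0.047).

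Regulators of the mitotic programme were mixed, with 5 of 24 separated with mutants below and 1 above. Their log2 fold change was negative in 19 and positive in 5, with a median of -0.31. Foxm1, the transcription factor that activates late cell cycle genes, measured 10.5, 15.3 and 11.4 FPKM in controls, against 4.36, 5.85 and 3.65 FPKM in mutants (limma adjusted p = 0.0572). Rbl1, which encodes the DREAM subunit p107, measured 9.85 to 11.98 and 3.27 to 8.99 FPKM. Of 35 other kinetochore genes 14 were separated with mutants below. Ska1, of the complex that couples kinetochores to microtubules, measured 3.05 to 6.43 FPKM in controls and 0.291 to 1.10 FPKM in mutants, and Spc25, of the NDC80 complex, 45.0 to 56.1 and 6.53 to 27.5 FPKM (adjusted p = 0.0632 and 0.0755, limma). Among 36 other spindle and cytokinesis genes 12 were so separated and 1, Pttg1, was separated with mutants above. Pttg1, which encodes securin, the inhibitor of separase, measured 28.8, 23.9 and 33.85 FPKM in controls, against 37.5, 54.2 and 36.7 FPKM in mutants (limma adjusted p = 0.318), and was chosen after its values were seen. The kinase gene Pbk measured 42.5 to 57.6 and 17.0 to 26.2 FPKM and the minus-end kinesin gene Kifc1 3.98 to 6.91 and 0.659 to 1.37 FPKM (adjusted p = 0.0521 and 0.0632, limma).

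For the APC/C core and for condensin and cohesin, as for the regulators, the medians lay nearer 0 than in 2 other lists. These were the other kinetochore genes (-0.48) and the other spindle and cytokinesis genes (-0.59). The 16 APC/C core subunits had a median log2 fold change of -0.28, and 2 (12.5%) were separated, near the 9.4% of all genes tested. Anapc4, a scaffold subunit, measured 29.1 to 37.4 and 16.15 to 23.1 FPKM (limma adjusted p = 0.181). The 18 condensin and cohesin genes had a median of -0.23, with 6 (33.3%) separated. Among these were the condensin genes Smc4 (24.8 to 34.2 and 13.6 to 17.45 FPKM) and Smc2 (11.8 to 16.8 and 7.30 to 8.28 FPKM). In the list of DNA replication genes, 23 of 36 were separated with mutants below, with a median of -0.62. Beyond Gins2, the cyclin E gene Ccne2 measured 3.73 to 7.05 FPKM in controls and 1.17 to 1.85 FPKM in mutants (limma adjusted p = 0.0926). The differences between these lists were not tested.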

How the data were processed

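Condylar cartilage RNA was measured in 3 control and 3 mutant libraries, grouped by their labels. Total RNA was isolated with the miRNeasy kit, and SMART-Seq HT cDNA went into Nextera libraries, per the labels' protocols. These kits do not mark strand. The deposited tables hold 1 library each, and their values were taken as FPKM made by the authors, since the submitters' processing notes name Cufflinks 2.2.1, TopHat2 2.0.13, Bowtie2 2.2.3, SAMtools 0.1.19 and the build mm10. The notes give neither order nor settings, the headers name no unit, and the annotation is likewise not given in the sources used here.

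Filtering kept 18715 genes that reached 1 FPKM in 3 or more libraries. Their log2(FPKM + 1) values entered limma 3.58.1 (R 4.3.3) with a term for group, a mean-variance trend and robust moderation. Benjamini-Hochberg adjustment covered every gene tested, and calls were made at 0.05. The procedure was also run on simulated data with independent normal noise, which does not measure its sensitivity for the 41 genes. The 41 genes and the lists were chosen with earlier results of these data known. All 41 are accounted for. Every library's value was to be given for called genes and for the 2 with the smallest p in each role, and up to 2 genes were to be named from each further list, and others were chosen after their values were seen. Fragments were recovered as the smallest whole numbers, up to 300, that left each of the 6 values no more than 0.02 of a fragment away, so multiples of them are possible. Their exact 95% intervals are for ratios of pooled fragments. Alternatives were 18 settings of scaling, filter, pseudocount, moderation, weights, pairing, covariates and libraries left out. Coordinates and exon overlaps came from GENCODE M21. Promoters came from RefSeq.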

Additional observations from a re-analysis of the deposited data

How the results depend on the processing

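The 41 genes (36 with the filter at 5 FPKM) kept a negative median log2 fold change in all 18 settings. It ranged from -1.07 to -0.80, and the direction of single genes held in all but 15 of their fits. The fits with Xist or the muscle mean as a covariate cannot separate these from genotype. The counts depended on the setting. The numbers called among all genes, among the 41 genes (lower) and among the other cell division genes (lower) were 232, 5 and 1 as reported, 133, 2 and 0 without a filter on low values, 440, 8 and 6 when genes had to reach 5 FPKM, 411, 8 and 6 after quantile normalization, and 365, 11 and 5 with scaling to the sum without muscle genes. They were 2, 0 and 0 with Xist as a covariate and with the muscle mean as a covariate, and 5, 0 and 0 without the 2 controls that express Xist. The other cell division genes called numbered 0 with a pseudocount of 0.1 and with moderation that was not robust, and 2 with array weights. Leaving out 1 library at a time gave 13 to 414 genes in all, 0 to 3 of the 41 and 0 to 2 of the others. With the replicate number as a block, 2, 0 and 0 were called; same-numbered libraries did not deviate together (correlations of 0.00628, -0.0162 and -0.00909), so the numbers were not taken as pairs.

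The genes whose direction turned were all among those that overlapped between the groups. Leaving out 1 library at a time gave log2 fold changes of -0.572 to 0.108 for Ccnf, -0.214 to 0.0416 for Ttk and -0.407 to 0.0274 for Cenpe. These were above 0 for Ccnf without control 1, control 2 or mutant 1, for Ttk without control 2 or mutant 2, and for Cenpe without control 2. With the Xist covariate they were 0.648 for Ccnf and 0.0622 for Ttk, and without the 2 controls that express Xist 0.713 and 0.0601. With the muscle covariate they were 0.224 for Ccnf, 0.695 for Ttk, 0.3 for Cenpe, 0.648 for Ndc80 and 0.989 for Kif4. The cause was not tested. For Ccnf and Cenpe the counting interval of the fragment ratio included 1. For Ndc80 (0.511 to 0.982) and Kif4 (0.31 to 0.695) it lay below 1, and for Ttk no fragments were recovered. These intervals leave out the spread between libraries.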
